A study of Rattus norvegicus with 24 samples.

Results

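Pdk4, Angptl4, Gpd1, Pnpla2, Pex11a, Plin4 and Cpt1a are 7 genes through which cells spare glucose, release fatty acids from stored fat and carry fatty acids and glycerol phosphate into metabolism. They were chosen by their roles and selected on their log2 signals in restrained against control rats, several having been seen higher in the rat hypothalamus after restraint. All probe sets carrying 1 of these symbols were used, 11 probe sets of the 31042 on the array that measure rat transcripts, and 7 of the 14217 genes measured. The values that helped to choose them are those of the restraint comparison, so that comparison is given for them as a description, without a test.

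Hypothalamic blocks were taken from 18 male Wistar rats, an outbred laboratory strain, aged 7 weeks in the labels, before 1 week of acclimatization. The 6 controls were not restrained. The 6 stress rats were held in wire mesh for 2 h, and the 6 linalool rats were held in the same way while 20 µL of (R,S)-linalool, a scented terpene alcohol, evaporated in a 40 L box. The arrays, 1 per rat, were normalized by the authors in 2 sets of 12: controls with stress rats (set 1), and the same stress rats again with linalool rats (set 2), so comparisons were made only inside a set and the same 6 stress rats enter both. A block holds neurons, glia, vessels and some meninges, so in these bulk samples fewer cells of a type and less RNA per cell cannot be told apart.

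When glucose is to be spared, pyruvate dehydrogenase kinases switch off the enzyme complex that feeds pyruvate into the citric acid cycle, and fatty acids take its place as fuel. Fatty acids are cut from stored triglyceride by lipases at the surface of lipid droplets, a step controlled by perilipins, and enter mitochondria through the carnitine shuttle or peroxisomes for oxidation. Fasting hormones and glucocorticoids, which rise in blood under stress, are known to induce many of these genes in liver, muscle and fat through glucocorticoid receptors, PPAR nuclear receptors and FOXO factors. In the brain, glia and vessel cells carry much of this machinery.

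The start regions of 4 of the genes that were higher after restraint are shown so that known control motifs can be read beside the values. Each runs from 250 bases before to 50 bases after the start of transcription, 5′ to 3′ along the gene, from RefSeq on the build GRCr8, at chr4:34568280-34568579 (minus strand) for Pdk4, chr1:205982029-205982328 (plus strand) for Pnpla2, chr1:143096442-143096741 (minus strand) for Pex11a and chr7:15258632-15258931 (minus strand) for Angptl4. Capitals mark matches, on either strand, to the GC box GGGCGG or the TATA box TATAAA.
Pdk4: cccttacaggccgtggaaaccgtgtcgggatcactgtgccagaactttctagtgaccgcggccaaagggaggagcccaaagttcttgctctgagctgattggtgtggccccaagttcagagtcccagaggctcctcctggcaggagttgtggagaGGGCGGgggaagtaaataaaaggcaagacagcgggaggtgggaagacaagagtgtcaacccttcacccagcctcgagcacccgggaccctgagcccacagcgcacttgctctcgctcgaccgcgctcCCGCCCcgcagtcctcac
Pnpla2: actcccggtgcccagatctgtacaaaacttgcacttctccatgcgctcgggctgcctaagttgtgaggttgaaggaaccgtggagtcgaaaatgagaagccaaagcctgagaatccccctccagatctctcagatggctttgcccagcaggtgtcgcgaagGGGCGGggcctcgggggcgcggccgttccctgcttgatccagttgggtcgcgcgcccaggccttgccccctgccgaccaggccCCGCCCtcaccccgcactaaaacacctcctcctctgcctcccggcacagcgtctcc
Pex11a: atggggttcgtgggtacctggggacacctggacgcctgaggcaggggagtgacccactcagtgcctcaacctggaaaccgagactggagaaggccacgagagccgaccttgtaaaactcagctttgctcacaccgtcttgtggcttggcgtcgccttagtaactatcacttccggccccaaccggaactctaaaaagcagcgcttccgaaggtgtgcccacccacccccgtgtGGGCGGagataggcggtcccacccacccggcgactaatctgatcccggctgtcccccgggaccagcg
Angptl4: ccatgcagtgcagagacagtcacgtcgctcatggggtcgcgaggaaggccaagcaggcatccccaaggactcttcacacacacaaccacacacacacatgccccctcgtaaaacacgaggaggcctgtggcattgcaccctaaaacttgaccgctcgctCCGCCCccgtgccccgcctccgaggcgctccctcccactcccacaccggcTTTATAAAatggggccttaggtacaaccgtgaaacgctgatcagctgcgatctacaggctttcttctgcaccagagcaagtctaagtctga
All 4 windows hold a GC box, as do 33.1% of the 33469 windows of this length in the table. Angptl4 has a TATA box on each strand, overlapping each other, with the forward one starting 39 bases before the start; 14.2% of all windows hold one. The full palindromic glucocorticoid response element (0.439% of all windows), its single arm AGAACA (20.7%, part of some full elements), the PPAR direct repeat (0.0538%), the nuclear receptor core site AGGTCA within that repeat (16.2%) and the FOXO site GTAAACA (3.78%) were searched on both strands as well, and their letters are not in these 4 windows. The Cpt1a window holds none of the 7 motifs, and of the 5 overlapping or neighbouring windows of Plin4 the most downstream holds 1 AGAACA while the others hold a GC box. Windows were found for 6 of the 7 genes. No window was used for Gpd1.

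Values are log2 signals as deposited. Their scale differs strongly between probe sets: for 80.9% of genes in set 1 and 81% in set 2 the residual SD, the spread between arrays of a group pooled over both groups, was under 0.01, and such values are called compressed here. A compressed log2 difference is no measure of fold, so each difference is also divided by the residual SD. With that SD taken as known, the standard error on this scale is 0.577. The SD is itself estimated from the arrays, so the error is larger than that, most of all for large differences. Of the 11 probe sets 3 were compressed in set 1 and 5 in set 2. The same 6 stress arrays show this directly. For Angptl4 their SD was 0.0402 in set 1 and 8.92e-05 in set 2, a ratio of 451, and for the Pex11a probe set of lower signal it was 0.142 and 0.000209, a ratio of 679, although the 6 values kept nearly the same relative positions (r = 0.992 and 0.975 between the sets, over arrays of the same RNA). For both Pdk4 and both Gpd1 probe sets the SDs of the sets stayed within a ratio of 0.945 to 1.12. Pnpla2 and the other Pex11a probe set lay between, with ratios of 2.24 (SD 0.0801 and 0.0358) and 1.71. The r of Pnpla2 between the sets, 0.868, was the lowest of the 11 probe sets. Its stress rat 6 ranked 3 of 6 in set 1 and was lowest in set 2. Both probe sets of Cpt1a and that of Plin4 were compressed in both sets.

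**Figure D1:**
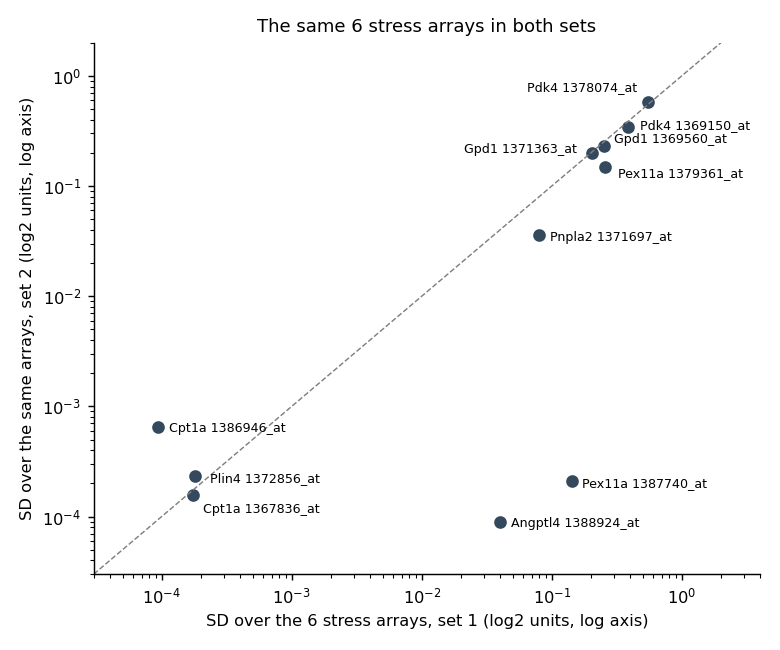
SD over the 6 stress arrays for each of the 11 probe sets, in set 1 (horizontal, log2 units, log axis) and in set 2 (vertical, log2 units, log axis); the dashed line marks equal SDs. Angptl4 and 1 of the 2 Pex11a probe sets lie far below the line, with SD ratios of 451 and 679, while Pdk4 and Gpd1 lie close to it.

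Pdk4, the kinase that inactivates pyruvate dehydrogenase, stood higher in every restrained rat than in any control. Its log2 signal, in the probe set with the higher signal, was 8.15 at the lowest, 8.38 at the median and 8.56 at the highest among the 6 controls. Among the 6 stress rats these values were 8.80, 9.71 and 10.19. The groups did not overlap, and the stress rats spread more widely than the controls, with rats 1 and 2 highest and rat 6 lowest. The difference was 1.25 (SE 0.229), or 2.38-fold on the deposited scale and 3.09 residual SDs. The other Pdk4 probe set ran from 7.48 to 7.87 in controls and from 8.00 to 9.02 in stress rats, a difference of 0.82 (SE 0.164, 2.82 residual SDs), again without overlap.

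Pnpla2 encodes adipose triglyceride lipase, which takes the first step in breaking down stored fat. Its signal was 8.63 at the lowest, 8.76 at the median and 8.92 at the highest in controls, against 9.13, 9.21 and 9.34 in stress rats. Every stress rat lay above every control, and the difference of 0.47 (SE 0.0548) came to 4.83 residual SDs, the largest of the 11 probe sets on that scale.

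Angptl4, a secreted inhibitor of lipoprotein lipase, had signals of 8.65, 8.73 and 8.75 in controls and of 8.79, 8.83 and 8.89 in stress rats (lowest, median and highest). The groups were apart by a narrow gap, and the difference of 0.12 (SE 0.0218) amounted to 3.03 residual SDs. Plin4, a perilipin that coats lipid droplets, was compressed, with signals of 7.7322, 7.73225 and 7.73239 in controls and of 7.73237, 7.73266 and 7.73287 in stress rats. Measured from the set's mean in residual SDs, the controls lay between -1.76 and -0.45 and the stress rats between -0.597 and 2.99. The groups overlapped through stress rat 6, while 5 of the 6 stress rats were above every control, and the difference was 2.48 residual SDs.

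Pex11a, a peroxisomal membrane protein that promotes peroxisome division, had signals of 8.10, 8.26 and 8.43 in controls and of 8.64, 8.89 and 9.24 in stress rats for the probe set with the higher signal, with no overlap. The difference was 0.67 (SE 0.113, 3.38 residual SDs), and the other probe set gave 0.33 (SE 0.0637, 2.90 residual SDs), also without overlap. Cpt1a is the carnitine palmitoyltransferase that lets long-chain fatty acids into mitochondria. It showed no such separation: its probe sets differed by 0.0189 and -0.0472 residual SDs, and both groups spanned nearly the same range. Both were compressed, and how far the compression hides a difference was not tested.

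Gpd1, the cytosolic glycerol-3-phosphate dehydrogenase that links glycolysis to glycerol phosphate for lipid synthesis, had signals of 10.52, 10.96 and 11.48 in controls and of 11.64, 11.92 and 12.15 in stress rats for the probe set with the higher signal. The lowest stress rat was above the highest control, control 4. The difference was 0.92 (SE 0.152), or 1.89-fold on the deposited scale and 3.42 residual SDs. The other probe set gave 0.89 (SE 0.139, 3.63 residual SDs), with controls from 7.95 to 8.58 and stress rats from 8.62 to 9.25.

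**Figure D2:**
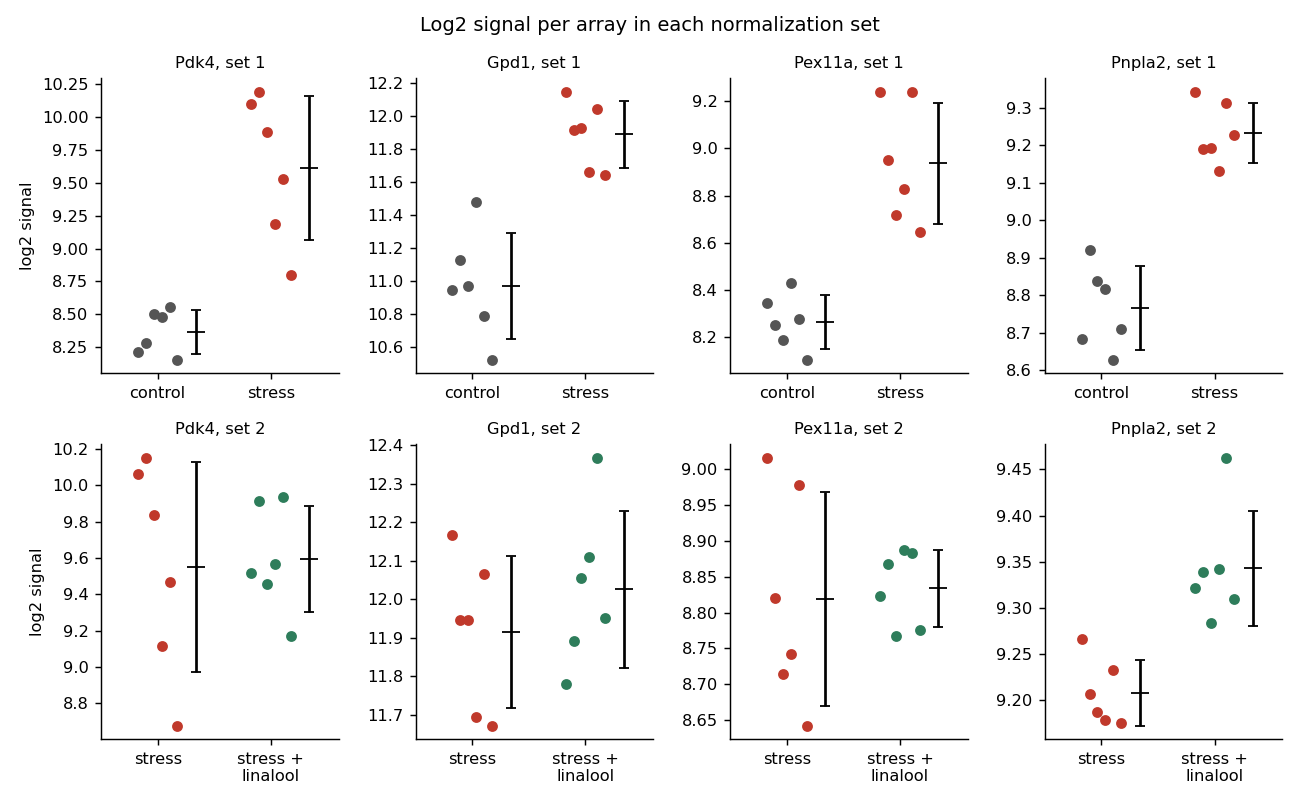
Log2 signal per array (points, in the order of the labelled replicate numbers) for the highest-signal probe sets of Pdk4, Gpd1, Pex11a and Pnpla2, with the mean and SD of each group of 6 rats (black); the upper row is set 1 and the lower row set 2, and each panel has its own vertical axis. In set 1 no stress rat overlaps a control for any of the 4 genes, and in set 2 only Pnpla2 separates linalool rats (9.28 to 9.46) from stress rats (9.18 to 9.27).

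As a description only, 5 of the 7 genes (Pdk4, Angptl4, Gpd1, Pnpla2 and Pex11a) passed an adjusted p of 0.05 upward in the limma fit over all genes, where 0.485% of all 14217 genes did, and none passed downward (0.225% of all genes; 0.71% passed in either direction). The same 5 were higher without overlap, as were 1.2% of all genes, and none was lower without overlap (0.668%). Since this comparison helped to choose the genes, nothing is read from these shares. The median difference was 3.09 residual SDs over the 7 genes and 0.11 over all genes. The count past the threshold was 1 without control 1, 3, 5 or 6 or without stress rat 1, 2, 3, 4 or 5, 3 without control 2 or 4, and 5 without stress rat 6.

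Controls 5 and 6 stood apart in markers of meningeal fibroblasts, cells of the brain's covering, with control 4 next. None of the 12 markers passed, but the score of the list, the average of its genes' distances from the set's mean in residual SDs, was 2.28 and 2.14 in controls 5 and 6, 0.851 in control 4, -1.08, -0.576 and 0.472 in controls 1 to 3, and between -0.918 and -0.453 in stress rats; the mean log2 signal of the list ran from 8.43 to 10.59 in controls and from 8.54 to 8.83 in stress rats. With controls 4, 5 and 6 left out, the differences of Pdk4, Gpd1, Pnpla2, Pex11a and Angptl4 were 1.28, 0.88, 0.42, 0.68 and 0.13, and in a fit holding the meningeal score as a covariate they were 1.24, 0.76, 0.41, 0.62 and 0.14. With controls 5 and 6 alone left out, an alternative chosen after seeing the data, they were 1.25, 0.76, 0.42, 0.64 and 0.12. The count past the threshold was 0 in all 3 of these fits, and the fits without controls held fewer arrays. Of 10 endothelial markers 2 fell after restraint and none rose, with mean log2 signals of 9.24 to 9.63 in controls and 9.13 to 9.46 in stress rats; the part of vessel cells in the values of the 7 genes was not tested.

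Other neighbouring cell types gave no calls between controls and stress rats: none of 10 oligodendrocyte markers, 8 astrocyte markers, 6 mural cell markers, 6 adipocyte markers, 7 microglia markers, 5 choroid plexus markers and 9 markers of hypothalamic neurons passed. Single arrays stood apart in the choroid plexus list, with a score of 1.62 in control 4 (other controls -0.366 to -0.0901) and of 1.32 in stress rat 1 (other stress rats -0.51 to -0.216), control 4 being also the highest control for Gpd1; its part in the Gpd1 values was not tested. Adipocytes, the cells in which these genes are best known, are no known part of the block, and the score of their 6 markers ran from -0.214 to 0.373 in controls, -0.757 to 0.397 in stress rats of set 1, -0.948 to 0.235 in stress rats of set 2 and -0.646 to 1.4 in linalool rats. The mean log2 signal of that list, 7.002 in set 1 and 6.982 to 6.983 in set 2, was too compressed to show differences. The oligodendrocyte score was highest in control 2 (1.66) and lowest in control 6 (-1.8), and control 6 was also the lowest control in the highest-signal probe sets of Gpd1, Pdk4 and Pex11a. Control 2 was in the middle of the controls for Pdk4 (8.28) and Pex11a (8.25). It was below only control 4 for Gpd1 (11.12), the highest control for Pnpla2 (8.92) and above only control 1 for Angptl4 (8.70). Stress rat 1, with the highest oligodendrocyte score of its group (0.676), was highest of the stress rats for Gpd1 and Pnpla2. It ranked 2 of 6 for Pdk4 and Pex11a and 5 of 6 for Angptl4. The part of oligodendrocyte content in those values was not tested.

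**Figure D3:**
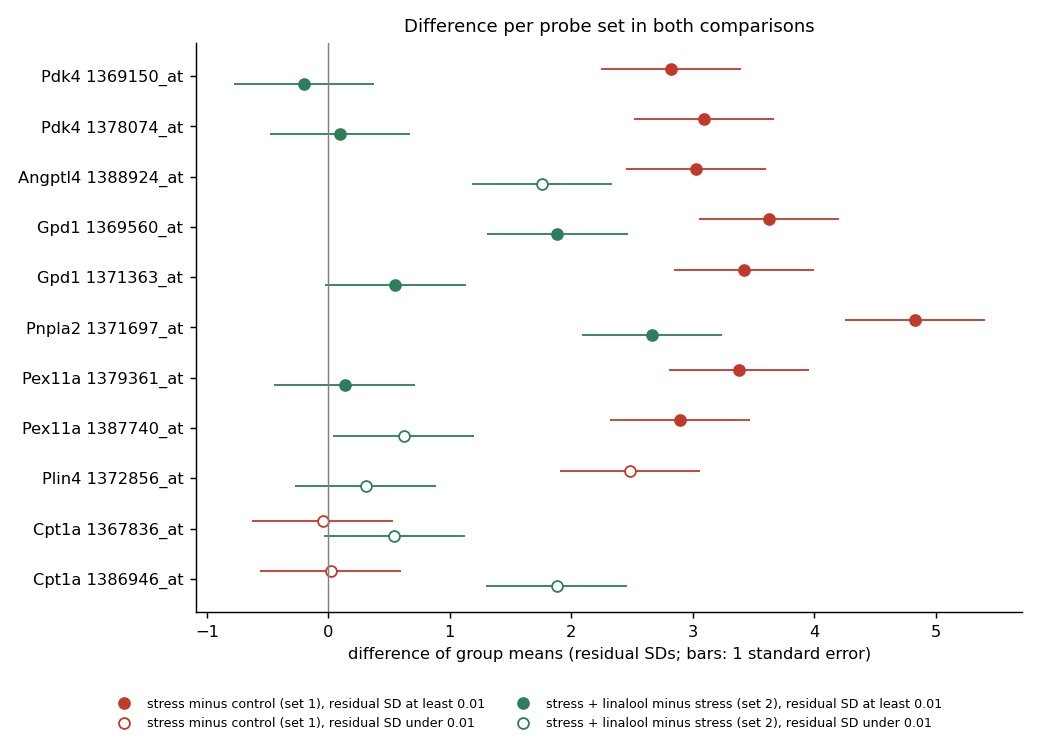
Difference of group means in residual SDs for all 11 probe sets (points), stress minus control in set 1 (red) and stress plus linalool minus stress in set 2 (green). Bars are 1 standard error with the residual SD taken as known, and so are too short for large differences. Open points mark compressed probe sets. In red, 8 of 11 points are at 2.82 or above and belong to Pdk4, Angptl4, Gpd1, Pnpla2 and Pex11a, while both Cpt1a points lie close to 0; in green, Pnpla2 is farthest from 0, at 2.67.

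Within a group, rats that were high in 1 of these genes tended to be high in others, to an uneven degree. Deviations from the group means, taken over the 18 rats (controls and stress rats from set 1, linalool rats from set 2), correlated between genes at r = 0.036 to 0.733, with a median of 0.363 over the 21 pairs. Pex11a with Plin4 gave the highest value, followed by Gpd1 with Pnpla2 (0.674) and Gpd1 with Pex11a (0.599). Gpd1 with Cpt1a gave the lowest, and Pdk4 with Cpt1a 0.0647. The 2 probe sets of a gene correlated at 0.956 for Pdk4, 0.884 for Gpd1, 0.825 for Cpt1a and 0.818 for Pex11a, which sets a scale for these values. All pairs share the same RNA and normalization, so these are descriptions. Among the stress rats of set 1, rat 6 was lowest of the 6 for Pdk4, Gpd1, Pex11a, Angptl4 and Plin4 and the third highest for Pnpla2, while rat 5 was highest for Pex11a, Plin4 and Cpt1a.

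**Figure D4:**
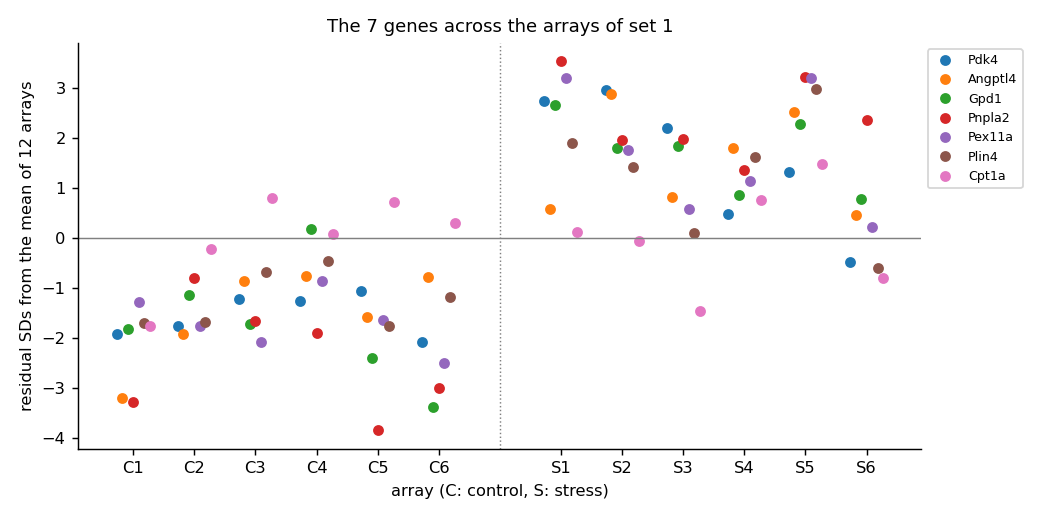
Highest-signal probe set of each of the 7 genes in the 12 arrays of set 1, as residual SDs from the mean of the 12 arrays (vertical); C1 to C6 are controls and S1 to S6 stress rats. Stress rat 6 has the lowest points of its group for 5 of the 7 genes, and the groups overlap for Cpt1a and, through stress rat 6, for Plin4.

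The genes whose within-group deviations over the 18 rats were most like those of each of the 7 were named by Pearson's r among genes at or above the median signal. Pdk4 was closest to Ddit4 (r = 0.903, rho = 0.899), a stress-induced inhibitor of mTOR signalling, and to the corticosteroid-induced kinase gene Sgk1 (0.89, rho = 0.936). Pex11a was closest to Slc25a13 (0.797, rho = 0.818), a mitochondrial aspartate-glutamate carrier, and Aspa (0.795, rho = 0.882), the aspartoacylase of oligodendrocytes. Gpd1 was closest to the cell cycle inhibitor Cdkn1a and to Tyw5 (both 0.865, rho = 0.765 and 0.792), Cpt1a to Abca1 (0.814, rho = 0.767), a cholesterol exporter, and Fam114a2 (0.796, rho = 0.792), and Pnpla2 to Slc37a4 (0.793, rho = 0.676), the glucose-6-phosphate transporter, and Ints9 (0.75, rho = 0.585). Plin4 was closest to the glutamate receptor gene Grm5 (0.75, rho = 0.674) and to Pex11a (0.733, rho = 0.67), and Angptl4 to Gad2 (0.863, rho = 0.806), a GABA-synthesizing enzyme, and Traf3 (0.856, rho = 0.868). The median r of a member with all genes lay between -0.0318 and 0.037. The named genes were picked for the highest r among many over 18 rats, so high values come with the choice. How high r would reach without any tie was not tested. Of the named genes Sgk1, Cdkn1a, Slc25a13, Aspa and Pex11a were higher without overlap after restraint, as were 1.2% of all genes. The others overlapped, with the means of Gad2, Traf3, Grm5 and Fam114a2 lower.

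The second comparison asked whether the odour changed the response to the same restraint. It was not used to choose the 7 genes, but it shares the stress rats, whose high values did help to choose them, so it is not fully independent. Pnpla2 rose further with linalool, Angptl4 and Cpt1a rose on compressed scales, and Pdk4, Gpd1, Pex11a and Plin4 did not pass in their highest-signal probe sets. That is 3 of 7 genes upward, where 20% of all genes rose, and none downward, where 9.71% of all genes fell; 29.7% passed in either direction. Of the 4229 genes past the threshold 67.4% were higher, a share of 95.3% with median centring and 56.7% in the fit of all probe sets. The median difference of the 7 genes was 0.552 residual SDs and that of all genes 0.223. Of the 57 array control probe sets, which match no rat transcript or serve as technical references, 27 passed, against 1 in the restraint comparison. Their p-values were adjusted over the 57 alone, so their threshold is not that of the genes. A processing difference between these arrays and the odour cannot be told apart.

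Pnpla2 had signals of 9.18, 9.20 and 9.27 in stress rats and of 9.28, 9.33 and 9.46 in linalool rats (lowest, median and highest). Every linalool rat was above every stress rat, as for 10.5% of all genes, and none of the 7 was lower without overlap (3.7%). The same stress arrays spread less for Pnpla2 in set 2 (SD 0.0358) than in set 1 (0.0801). How far the separation rests on that was not tested. The difference was 0.14 (SE 0.0288, 2.67 residual SDs, adjusted p = 0.00602), and Pnpla2 passed in each of the 20 alternative fits, with adjusted p-values from 0.00257 to 0.0179. Cpt1a, compressed, had signals of 9.86272, 9.86369 and 9.86457 in stress rats and of 9.86379, 9.86502 and 9.86561 in linalool rats. It lay between -2.41 and 0.38 residual SDs from the mean of set 2 in stress rats and between -0.803 and 1.97 in linalool rats. Of the linalool rats 5 were above every stress rat, rat 4 being the exception, and the difference was 1.88 residual SDs (adjusted p = 0.0298). Angptl4, compressed in this set, had signals of 8.90824, 8.90829 and 8.90843 in stress rats and of 8.90831, 8.90851 and 8.90854 in linalool rats. It lay between -1.79 and 0.342 in stress rats and between -0.963 and 1.62 in linalool rats, with all but linalool rat 1 above every stress rat (1.76 residual SDs, adjusted p = 0.0423). The 2 compressed calls depended on single arrays. Angptl4 stayed past the threshold in 3 of the 12 fits without 1 array, those without stress rat 2 or 5 or linalool rat 1 (adjusted p from 0.0131 to 0.0877 over the 12), and Cpt1a in 6, those without stress rat 2, 4 or 5 or linalool rat 1, 3 or 4 (0.0105 to 0.0614). With quantile normalization neither passed (adjusted p = 0.766 and 0.995) and the difference of Cpt1a turned negative, Angptl4 did not pass with the meningeal covariate (0.0588), and the other Cpt1a probe set did not pass (0.544 residual SDs, adjusted p = 0.528 over all probe sets).

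Pdk4 with linalool had signals of 9.17, 9.54 and 9.94 against 8.68, 9.65 and 10.15 in stress rats. The linalool rats lay inside the range of the stress rats, and the difference was 0.04 (SE 0.259, adjusted p = 0.918), with -0.05 (SE 0.149) for the other probe set. The SE exceeds the difference, so a difference of either sign lies within the error. Pex11a had signals of 8.64, 8.78 and 9.02 in stress rats and of 8.77, 8.85 and 8.89 in linalool rats, all inside the range of the stress rats. It spread over 0.121 in linalool rats and 0.375 in stress rats, with a difference of 0.02 (SE 0.0638, adjusted p = 0.882). Plin4 differed by 0.307 residual SDs (adjusted p = 0.726).

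The 2 probe sets of Gpd1 disagreed on a call. The probe set with the lower signal was at 8.49, 8.89 and 9.06 in stress rats and at 8.97, 9.19 and 9.56 in linalool rats (lowest, median and highest). Of the linalool rats 5 were above every stress rat, all but rat 1, and the difference was 0.40 (SE 0.121, adjusted p = 0.0335 over all 31042 probe sets). The other differed by 0.11 (SE 0.114, adjusted p = 0.504), with 1 linalool rat above every stress rat. The call on the lower-signal probe set held in 5 of the 12 fits that left out 1 array, those without stress rat 1, 2 or 5 or linalool rat 1 or 3 (adjusted p from 0.0281 to 0.0695 over the 12), and the 2 probe sets together do not settle whether Gpd1 changed with the odour.

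To place the 7 genes in their pathways, 164 other genes were listed by textbook role in 9 lists, of which 148 were measured. After restraint 3 of the 148 rose and none fell, 2.03% in all against 0.71% of all genes in either direction, with a median difference of 0.216 residual SDs against 0.11 over all genes; 115 of the 148 were compressed. The 3 were Klf15, a glucocorticoid-induced transcription factor of fasting metabolism, Foxo3, a FOXO factor of the group known to drive Pdk4 and Pnpla2, and Lipe. Klf15 averaged 9.52 ± 0.115 (SD) in controls and 9.92 ± 0.129 in stress rats and so rose by 0.40 (SE 0.0692, limma adjusted p = 0.0348). Foxo3 averaged 10.70 ± 0.0756 and 10.92 ± 0.061 and rose by 0.22 (SE 0.0389, limma adjusted p = 0.0392). Lipe, the hormone-sensitive lipase that takes the step after Pnpla2, rose by 3.04 residual SDs on a compressed scale (adjusted p = 0.0492). For all 3 the groups did not overlap, as for 1.2% of all genes upward. Klf15 and Foxo3 each passed in 3 of the 12 fits without 1 array and Lipe in 1 (adjusted p up to 0.098, 0.1 and 0.124). Limma adjusted p-values were 0.226, 0.289 and 0.365 with the meningeal covariate and 0.119, 0.152 and 0.34 without controls 4, 5 and 6. With the replicate block they were 0.152, 0.0878 and 0.138, so none of the 3 passed in these fits. With the probe sets of a gene averaged, Klf15 differed by 0.25 and Foxo3 by 0.07, both past the threshold, while Lipe did not pass (adjusted p = 0.241). Lipe also missed the threshold with median centring, quantile normalization, all probe sets fitted or no moderation (adjusted p from 0.0549 to 0.197).

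The other kinases of the Pdk4 family did not pass after restraint. None of the 13 genes of pyruvate dehydrogenase control passed, with Pdk3 at -1.77 and the pyruvate carboxylase gene Pc at 1.33 residual SDs (adjusted p = 0.191 and 0.295). In lipolysis and lipid droplets Lipe was the 1 gene of 19 that rose. G0s2, which encodes the protein inhibitor of the Pnpla2 lipase, was singled out here after its values were seen, outside the rule for naming list genes. It did not pass, at -0.48 (-2.67 residual SDs, adjusted p = 0.0739). All its stress rats lay below all controls, as for 0.668% of all genes. With linalool it rose by 1.76 residual SDs on a compressed scale (adjusted p = 0.0395). Alternative fits are not given for it, and any tie to Pnpla2 was not tested. None of the 23 genes of mitochondrial fatty acid oxidation passed, with Ucp3 at 1.89 and Eci1 at -1.59 residual SDs (adjusted p = 0.166 and 0.23), and none of the 21 peroxisome genes, with Ehhadh at 2.17 and Scp2 at 1.41 residual SDs (adjusted p = 0.129 and 0.279).

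Genes of ketone bodies, glycerol phosphate, uptake and synthesis gave no calls after restraint either. None of 6 ketone body genes passed, with Bdh1 at -1.92 residual SDs and the monocarboxylate transporter gene Slc16a1 at -1.26 (adjusted p = 0.162 and 0.312). None of 15 genes of glycerol phosphate and glycerolipid synthesis passed, with the phosphatidate phosphatase gene Lpin1 at 1.87 and Gpam at -1.2 residual SDs (adjusted p = 0.166 and 0.334). None of 15 genes of fatty acid uptake and activation passed, with the glial fatty acid binding protein gene Fabp7 at -2.35 and Acsl1 at -2.33 residual SDs (adjusted p = 0.104 and 0.118), and none of 15 genes of fatty acid synthesis, with Elovl2 at 1.48 and Acaca at 1.12 (adjusted p = 0.253 and 0.363). Klf15 and Foxo3 were the 2 of 21 regulators that rose.

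With linalool 40 of the 148 pathway genes rose and 10 fell, 33.8% in all against 29.7% of all genes. Of all genes 20% rose and 9.71% fell, and each list count is to be read beside these shares. The median difference of the 148 was 0.552 residual SDs against 0.223 over all genes. Mitochondrial fatty acid oxidation held the most: 11 of 23 rose and 1 fell, with a median of 1.43 residual SDs. Hadha, the long-chain trifunctional protein subunit, rose by 0.43 (SE 0.0334, adjusted p = 5.46e-05) and Echs1, an enoyl-CoA hydratase, by 0.08 (SE 0.00978, adjusted p = 0.000392), while Cpt1c, the neuronal relative of Cpt1a, fell by 4.81 residual SDs (adjusted p = 0.000361) but turned upward with median centring (0.00732 on the log2 scale). Of the 21 peroxisome genes 7 rose and 2 fell, among them Scp2 (0.22, adjusted p = 9.56e-05), Hsd17b4 (0.13, adjusted p = 0.000235), both of peroxisomal oxidation, and the biogenesis gene Pex2 (0.30, adjusted p = 0.00337).

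Lipolysis gave calls both ways with linalool, 4 of 19 upward and 2 downward. These counts lie near the shares of all genes, 20% upward and 9.71% downward, so no change of lipolysis is read from them. Lipe fell by 3.01 residual SDs (adjusted p = 0.00368), opposite to its difference after restraint, in comparisons that share the stress rats. Hilpda and Plin2, both of lipid droplets, rose by 3.67 and 2.17 residual SDs on compressed scales (adjusted p = 0.00134 and 0.0178). Each passed in 6 of 7 alternative fits that kept all arrays, with limma adjusted p up to 0.09 and 0.156. The difference of Lipe turned upward with median centring (0.00737 on the log2 scale, adjusted p = 0.0356) and with quantile normalization (0.000904, adjusted p = 0.976). Of 13 genes of pyruvate dehydrogenase control 4 rose and 1 fell, the subunit genes Pdhb and Pdha1 by 2.25 and 2 residual SDs upward and the phosphatase gene Pdp2 at -2.01 (adjusted p = 0.015, 0.0258 and 0.0236); these 3 are compressed and their differences turned sign with quantile normalization.

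The counts of the other lists likewise stand beside 20% of all genes upward and 9.71% downward. In these lists 2 of 6 ketone body genes rose (Slc16a1 by 0.33, adjusted p = 0.000304, and Bdh2 by 2.74 residual SDs, adjusted p = 0.00609). Of 15 glycerol phosphate and glycerolipid genes 2 rose, the glycerol kinase gene Gk (3.84 residual SDs, adjusted p = 0.001) and the glycerol channel gene Aqp9 (0.39, adjusted p = 0.00179), and Agpat3 fell (-4.85 residual SDs, adjusted p = 0.00029; 0.00361 on the log2 scale with median centring). Of 15 uptake and activation genes 4 rose and 1 fell, with Dbi, an acyl-CoA binding protein gene, up by 0.44 (adjusted p = 9.34e-05), Acsbg1 by 0.29 (adjusted p = 0.000296) and Cd36 by 3.24 residual SDs (adjusted p = 0.00231). Of 15 synthesis genes 4 rose and 1 fell, led by Elovl5 (0.17, adjusted p = 0.00167) and the desaturase genes Fads1 (0.22, adjusted p = 0.00703) and Fads2 (0.14, adjusted p = 0.00959). Of 21 regulators Sirt3 and Nr1h2 rose (2.48 and 2 residual SDs, adjusted p = 0.00856 and 0.0236). Rxrb, a partner of PPAR receptors, fell by 0.25 on the log2 scale (adjusted p = 5.46e-05), while Klf15 differed by 0.04 and Foxo3 by -0.632 residual SDs (adjusted p = 0.68 and 0.454). The calls on Bdh2, Gk, Cd36, Sirt3 and Nr1h2 are on compressed scales. In alternative fits that kept all arrays, Bdh2, Gk and Cd36 each passed in 6 of 7, with limma adjusted p up to 0.0882, 0.113 and 0.772. Sirt3 and Nr1h2 each passed in 7 of 8, with limma adjusted p up to 0.395 and 0.99. Nr1h2 passed in 10 of the 12 fits without 1 array.

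**Figure D5:**
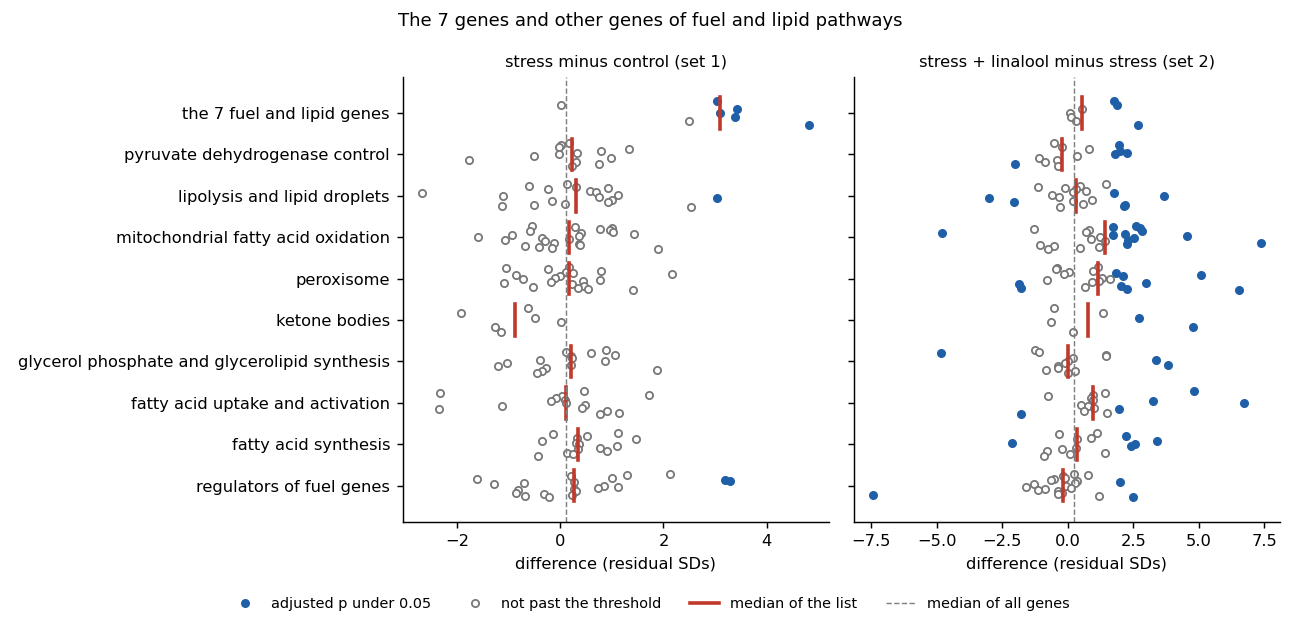
Difference in residual SDs for the 7 genes and for each of the 148 measured pathway genes by list (points; filled where the adjusted p was under 0.05), with the list's median (red) and the median of all genes (dashed), after restraint (left) and with linalool under restraint (right). After restraint the median of every pathway list is 0.347 or lower, while the position of the 7 genes there follows from their choice on this comparison; with linalool the medians of mitochondrial fatty acid oxidation and peroxisome genes are 1.43 and 1.15.

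Between stress and linalool rats, 2 of 10 oligodendrocyte markers rose and 1 fell, 1 of 8 astrocyte markers rose and 1 fell, 2 of 7 microglia markers, 1 of 10 endothelial markers and 1 of 6 adipocyte markers rose, 1 of 6 mural cell markers fell, and none of the 12 meningeal, 5 choroid plexus or 9 hypothalamic neuron markers passed. Over all genes 20% rose and 9.71% fell, so no shift of a cell type is read from these counts. Mean log2 signals were 12.28 to 12.35 in stress rats and 12.31 to 12.47 in linalool rats for the oligodendrocyte list, and 11.99 to 12.04 and 12.01 to 12.08 for the astrocyte list. The mural cell list did not overlap, at 8.648 to 8.683 in stress rats and 8.547 to 8.593 in linalool rats (scores of 0.345 to 1.28 and of -1.42 to -0.0915), with 1 of its 6 markers past the threshold, in the comparison in which Pnpla2 rose. The part of cell content in the values of Pnpla2 was not tested, apart from the meningeal score as a covariate, with which its adjusted p was 0.00557 in limma.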

How the data were processed

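RNA of 18 hypothalamic blocks was measured on 3' expression arrays, 1 per rat. The authors deposited 1 log2 signal for each probe set and array, between 5.59 and 14.93, after normalizing 2 sets of 12 arrays apart, per the labels' design text. No source used here gives the method, and the log2 scale was read from the range. Column medians were 8.157 to 8.19 in set 1 and 8.131 to 8.153 in set 2. A shift of a whole column by 0.01 exceeds the spread of compressed genes.

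Of 31099 probe sets, 57 array controls were left out; 20826 others had 1 gene symbol in the platform annotation, 436 several and 9780 none listed. Symbols were checked by gene identifier against RefSeq GRCr8 (20764 matched, 0 changed). Each of 14217 genes was its probe set with the highest mean. Each comparison used limma 3.58.1 (lmFit and eBayes, two-sided, no filter; R 4.3.3), with Benjamini-Hochberg adjustment over all genes and a threshold of 0.05; other probe sets of the 7 genes were adjusted over all 31042. Replicates are separate rats. On simulated arrays (200 of 14217 genes moved) a shift of 2, 3 and 4 residual SDs was found for 20%, 68% and 96% of the moved genes in the restraint setting. In the linalool setting the shares were 20%, 70% and 96%. Of the calls 8.39% and 8.33% were false. The simulated errors were independent between genes, without effects shared by an array. The linalool fit itself called 4229 genes, which loosens the adjusted threshold, so these rates do not describe that comparison.

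The genes, lists and tests were chosen with earlier results of these data known. Named pathway genes are up to 3 per list and comparison past the threshold with the largest difference in residual SDs, or the 2 with the smallest p; the 2 most alike genes per member follow Pearson's r. Alternatives were median centring, quantile normalization over all probe sets, a filter on low signals, probe sets of a gene averaged, a fit over all probe sets, no moderation, the meningeal covariate, a replicate block, controls 4 to 6 left out and each array left out.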

Additional observations from a re-analysis of the deposited data

Results flagged for a closer look

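The lower-signal Gpd1 probe set stood apart in control 4, the highest control: its gap to the next control was 0.791 of the range of the 6 controls. The Pnpla2 signal of linalool rat 5, the highest of its group, had a gap of 0.678 of its group's range. Both pass Dixon's 95% limit for 6 samples, which chance passes in about 1 of 20 groups, and 44 groups were looked at. Without control 4 the Gpd1 probe set differed by 0.99 after restraint, and without linalool rat 5 Pnpla2 differed by 0.11 with linalool (limma, adjusted p = 0.00257).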

How the results depend on the processing

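The differences of Pdk4, Angptl4, Gpd1, Pnpla2 and Pex11a after restraint kept their sign in every alternative run. No stress rat overlapped a control for these genes, so leaving out arrays could not turn the sign, and nothing is read from that. Without 1 array the differences were 1.13 to 1.41, 0.103 to 0.124, 0.83 to 1.02, 0.439 to 0.498 and 0.613 to 0.732. The count of the 7 genes past the threshold after restraint was 5. It was 4 with all probe sets fitted, and 4 of the 5 genes kept by the filter on low signals. It was 3 without moderation, 0 with the meningeal covariate, 0 with the replicate block, 0 without controls 4, 5 and 6 or 5 and 6, and 1 to 5 without 1 array. Over all genes the count was 101, and 61 with median centring, 49 with quantile normalization, 172 over all probe sets, 0 with the meningeal covariate, 9 with the replicate block, 2 without controls 4, 5 and 6, 3 without controls 5 and 6 (chosen after seeing the data), and 26 to 133 without 1 array. With linalool the count of the 7 genes was 3, and 4 with median centring (Plin4 gained, adjusted p = 0.0356), 2 with the meningeal covariate (Angptl4 lost, 0.0588), 1 with quantile normalization and 1 to 3 without 1 array; over all genes it was 4229, and 13223 with median centring, 1575 with quantile normalization, 7763 over all probe sets and 3548 to 4187 without 1 array.

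Replicate numbers were not taken to pair the samples, as not every same-number correlation was over 0.1: same-numbered deviations correlated at 0.0866 to 0.226 in set 1 and -0.11 to 0.194 in set 2, and 2 and 1 of 6 rats matched their own number best. With the replicate block 9 genes passed after restraint and 3254 with linalool, where 2 of the 7 genes passed (Cpt1a lost, adjusted p = 0.075).

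Differences that turned sign (log2 scale) are mostly compressed, so a shift of a whole column exceeds them. After restraint, with median centring and quantile normalization in turn, Pdk3 was 0.00943 and 0.00929, Eci1 0.00952 and 0.0093, Gpam 0.00949 and 0.0044 and Acsl1 0.0095 and 0.00731; with quantile normalization Scp2 was -0.00299 and Bdh1 0.00197; with the mean of probe sets Eci1 was 0.000247 and Acsl1 1.0e-05. With linalool, median centring gave 0.00738 for Pdp2, 0.00737 for Lipe, 0.00732 for Cpt1c and 0.00361 for Agpat3, and quantile normalization 0.00676 for Pdp2, -0.0247 for Pdha1, -0.0116 for Pdhb, 0.000904 for Lipe and -0.000515 for Cpt1a. Pdk4 was -0.00529 with the mean of its probe sets, -0.13 to 0.16 without 1 array, with -0.0445 and -0.132 without stress rat 4 or 6 and -0.0206 and -0.0256 without linalool rat 2 or 5, and its other probe set was -0.154 to 0.0279 without 1 array, the latter without stress rat 2. Pex11a was -0.0204 to 0.0546 without 1 array, with -0.00586, -0.000134 and -0.0204 without stress rat 3, 4 or 6. The cause was not tested. Signal over background was not used here, and 6 arrays a group limit the precision.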
